A study of Mus musculus with 18 samples.

Results

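The genes described here are 34 macrophage and haematopoietic markers, read in RNA from cultured mouse bone marrow stromal cells (BMSCs). They were chosen by name, with earlier results of these data known. Each marker was the row of the deposited table that carried its symbol, out of 56691 genes in all. A marker with fewer than 10 counts in every sample would have been set aside. None was: all 34 were found once, all 34 had at least 10 counts in at least 1 sample, and all 34 were among the 17631 genes tested. Macrophages arise from the haematopoietic lineage, not from the stromal lineage that gives osteoblasts and adipocytes. Their identity rests on the transcription factor PU.1 and on the receptor for macrophage colony-stimulating factor, and the mature cell carries surface receptors for debris, lipoproteins and antibodies, an adaptor system that passes their signals on, and an oxidase and lysosomal enzymes that act on what has been taken up. Bone marrow holds resident macrophages, and cells that adhere to plastic when stroma is cultured can include them.

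The study asked how FGF9, a secreted fibroblast growth factor, alters the choice of BMSCs between bone and fat. Wild-type BMSCs were read on day 4, without FGF9 or with 20 ng/ml of it, in culture medium (CM and CM_F9), in osteogenic induction medium with ascorbate-2-phosphate, beta-glycerol phosphate and dexamethasone (OI and OI_F9), and in adipogenic induction medium with dexamethasone, rosiglitazone, IBMX and insulin (AI and AI_F9). Each of the 6 groups held 3 samples, and the sources read do not give the age of the mice behind these libraries. The cells came from compact bone that was flushed of marrow and then digested with collagenase. Per the study's methods they were characterised by flow cytometry as negative for CD31, CD34, CD45 and Ter-119 and as positive for CD29, CD44, Sca-1 and CD140a; a sort is not described, and whether the sequenced cultures were the ones examined is not stated. The study describes its RNA-seq analyses as independent, and the labels number the replicates without saying whether each came from its own mouse or culture, so p-values measure the spread between these samples. CM served as the control of both OI and AI, and those comparisons share its samples.

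Total counts per sample ran from 16719561 to 20526502, and no library repeated another. The genes of the positive flow markers were read in CM. That of CD29, Itgb1, stood at 385 ± 10.2 FPKM (the deposited level, a count scaled by gene length and library total, ± SD, n = 3). Cd44 stood at 36.8 ± 0.958, the Sca-1 gene Ly6a at 75.3 ± 1.47 and the CD140a gene Pdgfra at 28.5 ± 0.638. Of the negative ones, the CD31 gene Pecam1 stood at 0.803 ± 0.18 and Cd34 at 10.9 ± 1.0. The gene of CD45, Ptprc, was nevertheless read in every sample, as were the 33 other markers in CM, CM_F9, OI and OI_F9. Markers of other blood cells were read in part. Of 13 lymphoid genes 9 stayed under 10 reads in every sample and the summed level of the list was 0.12 to 1.53 FPKM. Of 11 erythroid and megakaryocyte genes 7 stayed under 10 reads, of 9 mast cell genes 4 did, and of 13 granulocyte genes 3 did.

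The markers together had their highest mean sum in OI, whose samples overlapped with those of AI, and their lowest in AI_F9. Their summed FPKM was 1046 ± 253 in CM against 785 ± 49.9 with FGF9 (SD, n = 3 each), 1732 ± 197 in OI against 1412 ± 30.2, and 1669 ± 132 in AI against 475 ± 22.9. Which cells held the RNA of these genes was not tested. Fewer such cells and less of this RNA per cell cannot be told apart in bulk RNA. The AI sum was carried by 1 gene, the lysozyme gene Lyz2, which made up 70.8 ± 0.668% of it against 28.5 ± 0.552% in CM. Without Lyz2 the order changed: the other 33 markers summed to 748 ± 182 FPKM in CM and 497 ± 25.3 in CM_F9, to 941 ± 112 and 761 ± 35.1 in OI and OI_F9, and to 487 ± 33.3 and 133 ± 6.93 in AI and AI_F9. As a share of all counts the 34 genes took 0.243% in CM and 0.167% in CM_F9, 0.336% and 0.262% in the OI pair, and 0.257% and 0.0727% in the AI pair. With 3 samples against 3 an exact permutation test cannot go below p = 0.1, so these sums are given without a test.

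**Figure D1:**
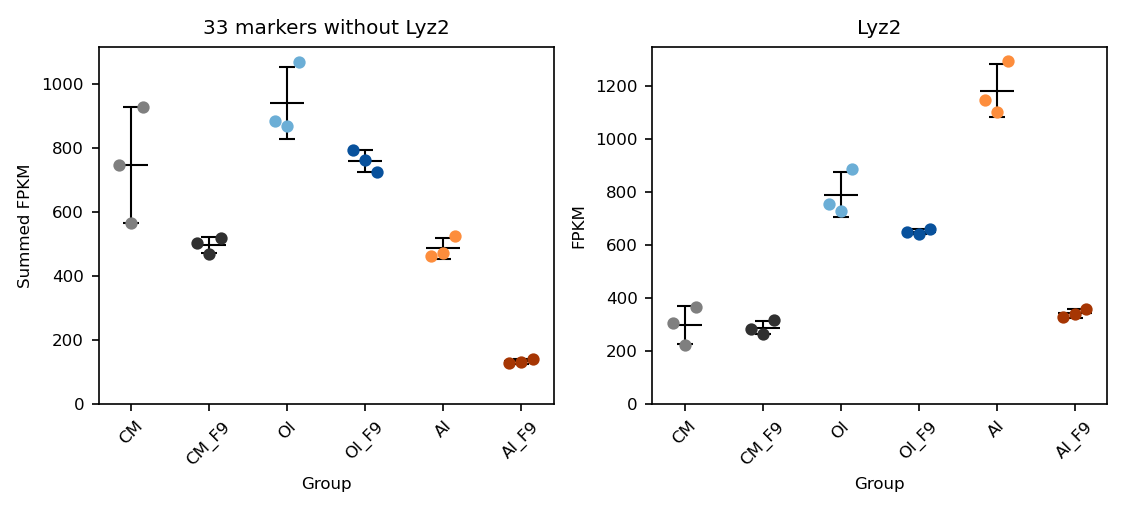
Summed FPKM of the 33 markers other than Lyz2 (left) and FPKM of Lyz2 (right) in the 6 groups; points are samples, the horizontal line is the group mean and the bars are ± 1 SD over 3 samples. The 33 markers summed to 128 to 141 FPKM in the AI_F9 samples and to at least 464 in every other sample, while Lyz2 was highest in AI, at 1103 to 1294 FPKM.

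The CM samples differed among themselves more than those of the other groups. CM replicate 2 lay below both other CM samples for 34 of 34 markers, with a median of -0.60 on the log2 scale against the other CM samples pooled, and CM replicate 3 lay above both for 31 (Cd52, Msr1 and Ncf1 were highest in CM replicate 1), with a median of 0.50 against the other CM samples pooled. Over all genes tested the same medians were -0.03 and 0.03. Calls of the 34 markers by both thresholds that rest on CM, and their counts, are given with the value without CM replicate 2 or 3 where that changes. Sample separations and counts by the adjusted p alone are given with all samples. So are the calls and counts of genes outside the 34, which were not read without a CM replicate. The markers' median log2 fold change with FGF9 in CM was -0.83 without CM replicate 2 and -0.51 without CM replicate 3. In AI against CM it was -1.45 and -1.02. For the effect of FGF9 in AI minus that in CM it was -0.75 and -1.14. The part of cell composition in this spread was not tested.

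FGF9 lowered most of the markers in AI, with smaller median changes in CM and OI. In AI_F9 against AI, 29 of 34 passed the thresholds for a differentially expressed gene (log2 fold change of at least 1 in size and Benjamini-Hochberg adjusted p of at most 0.05 over all genes, edgeR's quasi-likelihood test) as lower and 0 as higher, where 9.32% and 6.66% of all genes tested did. Their median log2 fold change was -1.65, against 0.05 over all genes, so that the median marker stood at 31.8% of its AI level. In CM_F9 against CM, 4 markers (Csf1r, Adgre1, Cd300a and Aif1) were differentially expressed as lower and 1 (Cd163) as higher, against 5.16% and 5.5% of all genes, with a median of -0.66 against 0.02. In OI_F9 against OI, 1 marker (Cd300a) was lower and 0 were higher, against 6.07% and 5.48%, with a median of -0.48 against 0.01.

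By the adjusted p alone, with no minimum fold, CM_F9 had 28 markers lower than CM (18.9% of all genes; 18.5% were higher). OI_F9 had 23 (20.1% and 19.8%), AI_F9 had 31 (23.7% and 26.9%), and 21 were lower in all 3 media. In each medium 1 marker was higher by this rule, Cd163 in CM and in AI and C1qa in OI, as by the unadjusted p under 0.05, and DESeq2 gave 0 as higher by both thresholds in OI and AI. Sample separations were read in FPKM, which are scaled by library total and not by TMM. All 3 samples with FGF9 lay below all 3 without it for 19 markers in CM (19.8% of all genes tested). They did so for 24 in OI (20.1%) and for 30 in AI (38.9%). All 3 lay above for 1 marker in CM (30.9% of all genes), 1 in OI (27.2%) and 0 in AI (18.4%). The 4 markers that overlapped in AI were Pld4, Cd163, Fcgr1 and Aif1, all with low counts there. Leaving out CM replicate 2 gave 8 lower and 0 higher in CM, leaving out CM replicate 3 gave 1 and 1 (the calls of Csf1r, Adgre1 and Aif1 were lost), and leaving out any 1 sample gave 26 to 29 lower in AI. Scaling by library size in place of TMM moved the median of all genes in AI from 0.05 to -0.16 and that of the markers to -1.86, with 31 lower.

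**Figure D2:**
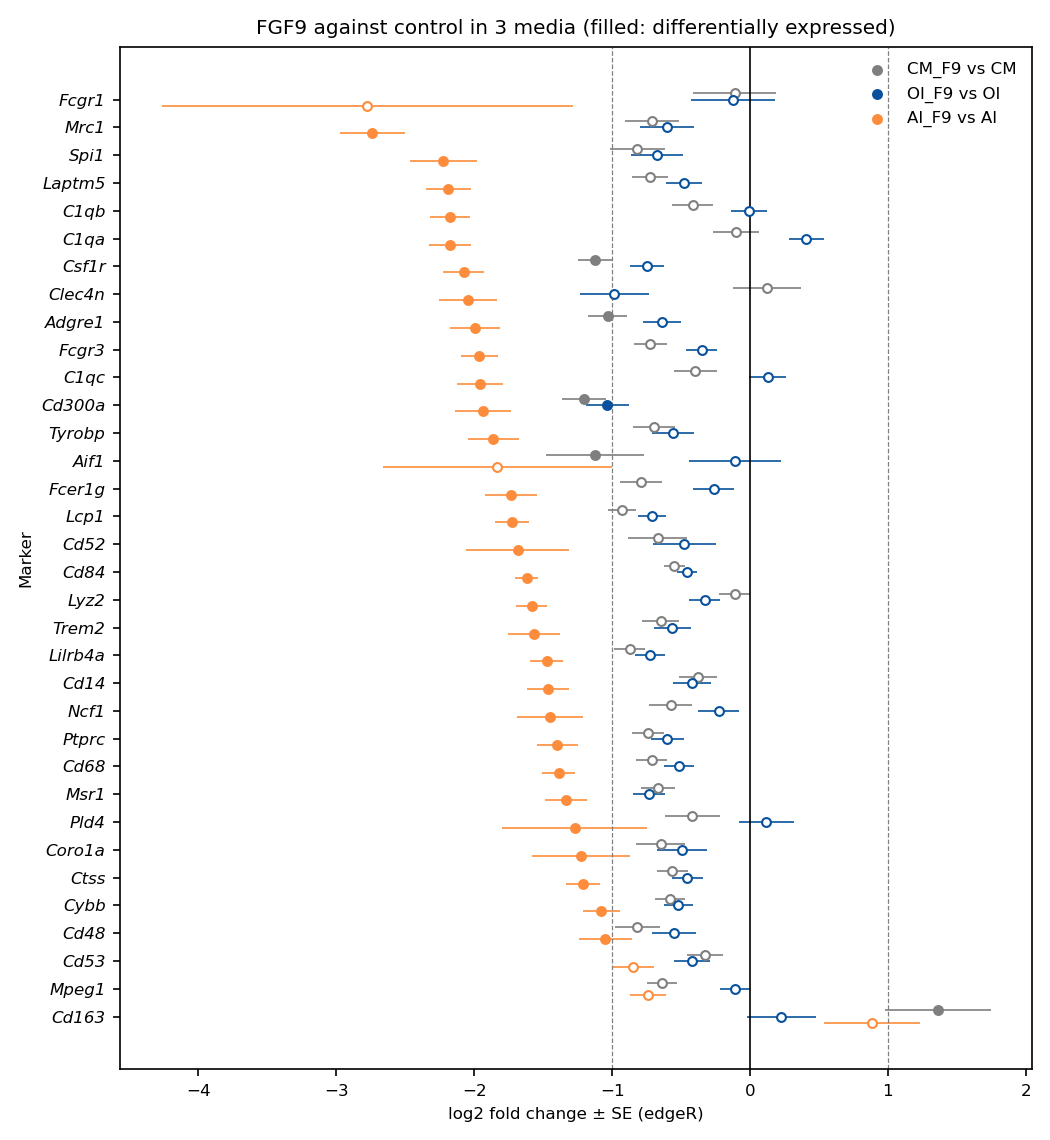
log2 fold change with FGF9 (x axis, edgeR, bars ± 1 SE) of each of the 34 markers (y axis, ordered by the change in AI) in CM (grey), OI (blue) and AI (orange); filled points were differentially expressed and dashed lines mark -1 and 1. In AI 33 of 34 markers lay left of 0 and 29 were filled, against 5 filled in CM and 1 in OI; Cd163 lay to the right in all 3 media.

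The lineage pair came first in the order of roles. Csf1r encodes the receptor for macrophage colony-stimulating factor and read 24.6, 16.5 and 28.6 FPKM in the CM samples and 10.8, 11.2 and 11.3 in CM_F9. It read 24, 23.9 and 28.6 in OI and 17.3, 15.9 and 13.9 in OI_F9, while AI read 10.7, 10.3 and 10.2 and AI_F9 2.43, 1.89 and 2.09. Every CM_F9 sample lay below every CM sample, every OI_F9 sample reached at most 17.3 where OI began at 23.9, and AI_F9 lay below every other sample. With FGF9 the log2 fold change was -1.12 ± 0.13 (SE) in CM with adjusted p = 1.19e-07. It was -0.75 ± 0.12 in OI (adjusted p = 2.95e-05) and -2.08 ± 0.15 in AI (3.61e-11), and the call in CM was lost without CM replicate 3. Spi1 encodes PU.1 and read 4.52, 4.95 and 5.25 FPKM in AI and 1.03, 0.56 and 1.15 in AI_F9. In CM Spi1 read 7.49, 4.12 and 8.37 without FGF9 and 3.78, 3.51 and 4.55 with it, and in OI 7.79, 8.06 and 10.6 without and 6.26, 5.91 and 4.99 with it. In CM and CM_F9 the samples of Spi1 overlapped through CM replicate 2, while in AI they did not. It changed in AI by -2.22 ± 0.24 (adjusted p = 5.78e-08). In CM and OI its changes of -0.82 ± 0.20 and -0.67 ± 0.19 passed the adjusted p (0.00202 and 0.00641) and not the fold threshold. Csf1r shares its position with Hmgxb3 on the opposite strand, whose counts were 49.3% of those of Csf1r, and how the counter treated strand is not stated in the sources read.

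Of the 5 markers on the surface of most leukocytes, 4 fell with FGF9 in AI and none passed both thresholds in CM or OI. Ptprc encodes the phosphatase CD45 and read 3.72, 2.83 and 4.32 FPKM in CM and 3.3, 3.2 and 2.93 in OI, compared with 2.32, 2.1 and 2.36 in CM_F9 and 2.23, 2.51 and 1.71 in OI_F9. The AI samples of Ptprc read 1.2, 1.02 and 1.14 and those of AI_F9 0.37, 0.38 and 0.35. No AI_F9 sample of Ptprc overlapped with AI, and the change there was -1.40 ± 0.15 (adjusted p = 3.68e-08), against -0.74 ± 0.12 in CM and -0.60 ± 0.12 in OI. Cd84, a receptor of the SLAM family, read 9.55, 8.42 and 11.5 FPKM in CM against 7.04, 7.11 and 6.85 with FGF9, 11.7, 11.8 and 12.6 in OI against 9.37, 9.16 and 8.63, and 7.83, 7.5 and 7.68 in AI against 2.23, 2.19 and 2.07. The samples with and without FGF9 did not overlap in any of the 3 media, and the change in AI was -1.62 ± 0.09 (adjusted p = 1.6e-13). Cd52, which encodes a small glycosylated surface antigen, read 6.19, 3.35 and 5.38 FPKM in the CM samples and 3.26, 3.32 and 3.17 in CM_F9. It read 3.02, 2.51 and 4.12 in OI and 2.33, 2.85 and 2.02 in OI_F9, while AI read 1.14, 1.29 and 0.87 and AI_F9 0.22, 0.38 and 0.27. The AI_F9 values rest on 20 reads over the 3 samples, against 73 in AI, and the change was -1.69 ± 0.37 (adjusted p = 0.000608). Cd48, a second SLAM family member, read 1.83 to 2.33 FPKM in AI_F9 against 4.43 to 5.22 in AI, a change of -1.05 ± 0.19. The tetraspanin gene Cd53 changed by -0.85 ± 0.15 in AI, past the adjusted p (3.71e-05) and short of the fold threshold.

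Among the receptors of the macrophage surface, Mrc1 changed most and Cd163 went the other way. Mrc1, the mannose receptor, read 14, 13.8 and 14.1 FPKM in AI and 2.08, 1.9 and 1.45 in AI_F9. In CM Mrc1 read 30.1, 15.5 and 41 without FGF9 and 17.9, 19 and 18.1 with it, and in OI 28.8, 29.1 and 26.9 without and 22.6, 20.8 and 14.5 with it. The AI samples were nearly equal and every AI_F9 sample lay far below them, a change of -2.74 ± 0.24 (adjusted p = 1.16e-09). In CM the Mrc1 samples overlapped with those of CM_F9, since CM replicate 2 read lower than all of them. Adgre1, which encodes the antigen F4/80, read 18.3, 12.8 and 23.3 FPKM in CM and 20, 18.3 and 20.7 in OI, compared with 9.59, 8.25 and 9.9 in CM_F9 and 15, 12.4 and 11.8 in OI_F9. The AI samples of Adgre1 read 7.06, 7.46 and 7.25 and those of AI_F9 1.65, 1.27 and 1.83. FGF9 separated the samples in each of the 3 media, with changes of -1.03 ± 0.14, -0.64 ± 0.14 and -2.0 ± 0.18. The call of Adgre1 in CM was lost without CM replicate 3 or CM_F9 replicate 2. Cd68, a lysosomal and endosomal glycoprotein of phagocytes, read 81.2, 63.1 and 102 FPKM in CM against 54.9, 49 and 53 with FGF9, 99.3, 103 and 124 in OI against 84.2, 74.1 and 77.9, and 60.9, 60.6 and 70.4 in AI against 21.4, 21.5 and 20.8. All 3 media separated here too, and the change in AI was -1.39 ± 0.12 (adjusted p = 1.24e-09).

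Cd14, the co-receptor for bacterial lipopolysaccharide, read 10.1, 8.12 and 12.6 FPKM in the CM samples and 8.18, 7.48 and 9.15 in CM_F9. It read 10.2, 9.31 and 11.2 in OI and 8.05, 7.37 and 8.35 in OI_F9, while AI read 9.09, 10.3 and 11.7 and AI_F9 3.87, 2.77 and 3.13. The means without FGF9 were 10.3, 10.2 and 10.4 in CM, OI and AI, and AI_F9 lay below every other sample, with a change of -1.46 ± 0.15 (adjusted p = 2.08e-08). Msr1, a scavenger receptor for modified lipoproteins, changed by -1.34 ± 0.15 in AI (2.79 to 3.46 FPKM in AI, 0.91 to 1.2 in AI_F9). Cd163, the receptor for haemoglobin bound to haptoglobin, read 0.15, 0.43 and 0.19 FPKM in AI and 0.39, 0.5 and 0.33 in AI_F9. In CM Cd163 read 0.14, 0.05 and 0.26 without FGF9 and 0.3, 0.47 and 0.44 with it, and in OI 1.43, 1.36 and 1.39 without and 1.84, 1.85 and 1.38 with it. It was low throughout, with 49 reads over the 3 CM samples and 121 in CM_F9. With FGF9 it was higher in CM, by 1.36 ± 0.38 (adjusted p = 0.00657), with no overlap of the samples. The call was lost without CM replicate 2, and in OI and AI the changes of 0.23 ± 0.25 and 0.88 ± 0.35 did not pass both thresholds.

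The adaptors Tyrobp and Fcer1g carry the activation motifs on which many receptors of these cells depend. Tyrobp, also known as DAP12, read 53.3, 38.4 and 69.5 FPKM in CM and 56, 57.6 and 71.2 in OI, compared with 31.5, 32.6 and 39.6 in CM_F9 and 46.1, 41.8 and 41.8 in OI_F9. The AI samples of Tyrobp read 36.1, 35.4 and 41.7 and those of AI_F9 6.99, 9.03 and 11.1. One CM sample of Tyrobp lay within the range of CM_F9, and AI and AI_F9 were far apart, with a change of -1.86 ± 0.18 (adjusted p = 8.33e-09). Fcer1g, the gamma chain shared by Fc receptors, read 39.3, 27.1 and 52.6 FPKM in CM against 25, 22.1 and 24.6 with FGF9, 34.1, 33.6 and 44.6 in OI against 33.6, 32.2 and 31.1, and 17.8, 16.5 and 18.8 in AI against 4.28, 4.57 and 5.03. The change in AI was -1.73 ± 0.19 (adjusted p = 5.63e-08), and in OI the FGF9 samples lay just below the others with a change of -0.26 ± 0.15. Fcgr3, an activating receptor for immunoglobulin G, read 22.1, 19.1 and 29.8 FPKM in the CM samples and 15.9, 14.4 and 14.6 in CM_F9. It read 35.2, 35 and 43 in OI and 30.9, 31.1 and 30.1 in OI_F9, while AI read 24.8, 23.2 and 26.9 and AI_F9 5.28, 4.95 and 6.44. FGF9 lowered it in AI by 1.96 ± 0.13 on the log2 scale, and the samples separated in all 3 media.

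Trem2, a lipid-sensing receptor that signals through Tyrobp, read 2.54, 2.4 and 2.61 FPKM in AI and 0.71, 0.8 and 0.69 in AI_F9. In CM Trem2 read 9.05, 7.12 and 12.6 without FGF9 and 6.37, 6.37 and 6.38 with it, and in OI 9.4, 9.43 and 12.9 without and 7.22, 7.26 and 7.73 with it. Every medium separated with FGF9, and the change in AI was -1.57 ± 0.19 (adjusted p = 2.7e-07). Clec4n, the lectin receptor dectin-2, read 1.27, 1.02 and 1.61 FPKM in CM and 2.1, 2.22 and 1.31 in OI, compared with 1.09, 1.82 and 1.52 in CM_F9 and 0.86, 1.06 and 1.01 in OI_F9. The AI samples of Clec4n read 6.69, 6.07 and 8.33 and those of AI_F9 1.7, 1.5 and 1.22. Its AI samples were the highest of all groups, and AI_F9 returned to the range of CM and CM_F9, with a change of -2.05 ± 0.21 (adjusted p = 2.11e-08). In CM FGF9 left Clec4n with a change of 0.12 ± 0.25 and overlapping samples. Fcgr1, the high-affinity receptor for immunoglobulin G, had 10 reads over the 3 AI samples and 1 in AI_F9, a ratio of 10.3 with a counting interval (exact, 95%) of 1.46 to 446, and it was not differentially expressed between them (adjusted p = 0.129). The inhibitory receptors Lilrb4a and Cd300a, which dampen such signals, changed in AI by -1.48 ± 0.12 and -1.94 ± 0.20. Cd300a was the marker past both thresholds in all 3 media, with -1.21 ± 0.16 in CM and -1.03 ± 0.16 in OI, where the call was lost without OI_F9 replicate 3. The OI call of Cd300a was also lost under library size scaling and under limma on log2 FPKM, and its CM call under limma. Lilrb4a has a near copy, Lilrb4b, with 410 to 3140 reads per sample, and reads may be split between them.

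The 3 chains of C1q, the recognition molecule of the classical complement pathway, rose in OI and fell with FGF9 past both thresholds in AI alone. Their genes lie side by side on chromosome 4 (136607440 to 136626114, GRCm39, minus strand), with no other gene of the annotation in the 18675 bases. C1qa read 6.23, 6.07 and 9.37 FPKM in CM against 7.19, 6.08 and 7.94 with FGF9, 33.2, 35.1 and 46.7 in OI against 53.9, 49.8 and 54.2, and 27.9, 28.3 and 30.9 in AI against 5.91, 4.67 and 6.16. OI, OI_F9 and AI all lay above every CM, CM_F9 and AI_F9 sample. C1qb read 27.2, 21.3 and 37.1 FPKM in the CM samples and 22.9, 20.2 and 23.8 in CM_F9. It read 71.4, 71.1 and 96.5 in OI and 85.6, 75.7 and 84.2 in OI_F9, while AI read 82, 91.5 and 98.3 and AI_F9 16.1, 16.6 and 19.5. Every AI_F9 sample of C1qb lay below every CM sample, and the OI and OI_F9 samples overlapped. C1qc read 16.6, 19 and 18.1 FPKM in AI and 3.34, 4.4 and 4.21 in AI_F9. In CM C1qc read 11.2, 8.41 and 16 without FGF9 and 10.1, 8.41 and 9.79 with it, and in OI 28.6, 29.6 and 36.9 without and 36.9, 33.3 and 37.6 with it. C1qc followed the same order as C1qa. With FGF9 the 3 chains changed by -2.17 ± 0.15, -2.18 ± 0.15 and -1.96 ± 0.17 in AI (C1qa, C1qb and C1qc in this order). The changes were 0.41 ± 0.13, -0.011 ± 0.13 and 0.13 ± 0.14 in OI, and -0.10 ± 0.17, -0.42 ± 0.15 and -0.40 ± 0.15 in CM. In AI each was differentially expressed, and in CM and OI none was.

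The lysosomal and secreted enzymes held the most abundant markers. Lyz2, which encodes the lysozyme of macrophages, read 307, 223 and 365 FPKM in CM and 756, 728 and 888 in OI, compared with 282, 266 and 316 in CM_F9 and 649.9, 642 and 661 in OI_F9. The AI samples of Lyz2 read 1149, 1103 and 1294 and those of AI_F9 328, 338 and 359.6. FGF9 left the CM samples overlapping, lowered OI slightly (-0.33 ± 0.11) and brought AI down to within the range of CM, a change of -1.58 ± 0.11 (adjusted p = 4.24e-11). Its near copy Lyz1 had 0 to 13 reads per sample. Ctss, a protease that trims antigens and invariant chain, read 181, 155 and 232 FPKM in CM against 136, 125 and 139.8 with FGF9, 212, 204 and 264 in OI against 173, 175 and 166, and 67, 66.8 and 84.6 in AI against 24.5, 28.1 and 29.4. FGF9 separated Ctss in each medium, with -1.21 ± 0.12 in AI, -0.56 ± 0.11 in CM and -0.46 ± 0.11 in OI. Laptm5, a lysosomal membrane protein of blood cells, read 25.3, 17.2 and 31 FPKM in the CM samples and 16.2, 13.8 and 16.3 in CM_F9. It read 22.9, 22.7 and 24.9 in OI and 19.6, 17.5 and 15.3 in OI_F9, while AI read 10.5, 10.7 and 9.64 and AI_F9 1.73, 2.14 and 2.01. The change in AI was -2.19 ± 0.16 (adjusted p = 8.92e-11), the largest of this role.

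Mpeg1, the pore-forming protein perforin-2, read 9.22, 7.95 and 8.6 FPKM in AI and 4.49, 4.21 and 4.69 in AI_F9. In CM Mpeg1 read 50.4, 39.3 and 55.3 without FGF9 and 32, 32.4 and 32.5 with it, and in OI 44, 39.8 and 45.5 without and 44.1, 47.7 and 32 with it. The AI samples were themselves far below CM and OI, and with FGF9 they changed by a further -0.74 ± 0.13, short of the fold threshold. Pld4, an endolysosomal nuclease, had 52 reads over the AI samples and 19 in AI_F9, a change of -1.27 ± 0.53 with adjusted p = 0.049 that was lost in 10 of 26 alternative settings. The oxidase subunits Cybb, the membrane-bound catalytic chain, and Ncf1, a cytosolic organiser, changed by -1.08 ± 0.13 and -1.45 ± 0.24 in AI. Ncf1 read 8.32, 5.19 and 8.11 FPKM in CM and 8.63, 8.12 and 11.1 in OI, compared with 5.02, 4.21 and 5.94 in CM_F9 and 8.05, 9.61 and 7.04 in OI_F9. The AI samples of Ncf1 read 1.72, 1.5 and 1.78 and those of AI_F9 0.56, 0.5 and 0.53. AI and AI_F9 did not overlap, and in OI the samples with and without FGF9 did. Ncf1 overlaps Gtf2ird2 on the other strand, which had 53.9% of its counts.

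Among the actin-binding and calcium-binding proteins of leukocytes, Lcp1, the actin bundler plastin-2, read 27.9, 21.2 and 33.1 FPKM in CM against 15.1, 13.7 and 16.3 with FGF9, 23, 22.4 and 25.7 in OI against 15.4, 16 and 13.5, and 6.29, 6.08 and 6.71 in AI against 1.6, 1.74 and 1.66. All 3 media separated, with changes of -0.93 ± 0.10, -0.71 ± 0.10 and -1.73 ± 0.12. Coro1a, coronin 1A, changed by -1.23 ± 0.35 in AI (0.67 to 1.01 FPKM in AI, 0.29 to 0.33 in AI_F9), and it overlaps Bola2 on the other strand, which had 73.7% of its counts. Aif1, the calcium-binding protein IBA1, was lower in CM_F9 (-1.12 ± 0.36, adjusted p = 0.0155), a call that was lost without CM replicate 3 or CM_F9 replicate 3. In AI it had 13 reads against 3 in AI_F9, a ratio of 4.45 (counting interval 1.22 to 24.4), with adjusted p = 0.0721.

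Adipogenic medium by itself divided the list. In AI against CM, both without FGF9, 20 markers were lower and 4 higher, where 13.5% and 8.68% of all genes were, with a median of -1.23 against -0.0026 over all genes. The changes of single markers ran from -4.89 to 2.32, an SD over markers of 1.62, where that over all genes tested was 1.32. For FGF9 in AI the SD was 0.65 over markers and 0.98 over all genes tested. Those that fell most were Fcgr1 (-4.89 ± 0.50, from 303 reads over the CM samples to 10), Pld4 (-4.13 ± 0.28), Coro1a (-3.52 ± 0.22), Aif1 (-3.03 ± 0.44) and Mpeg1 (-2.60 ± 0.12). All 3 actin and calcium proteins were among the 20, as were both oxidase subunits. The 4 that rose were Clec4n (2.32 ± 0.21), C1qa (1.89 ± 0.15), Lyz2 (1.88 ± 0.11) and C1qb (1.56 ± 0.14), and C1qc changed by 0.48 ± 0.15. Fcgr3 changed by -0.03 ± 0.12 and Cd14 by -0.09 ± 0.13, and their samples overlapped. The samples separated downward for 23 markers and upward for 5 (27.4% and 38.0% of all genes), and without CM replicate 2 or 3 the counts were 21 lower and 4 higher or 17 and 5 (Cd300a, Cd53 and Mrc1 were lost without CM replicate 3). By the adjusted p alone 26 were lower and 5 higher (30.5% and 28.5% of all genes).

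Osteogenic medium raised a few markers and lowered none past the thresholds. In OI against CM, 5 were higher (Cd163 by 3.18 ± 0.33, C1qa by 2.38 ± 0.15, C1qb by 1.46 ± 0.14, C1qc by 1.40 ± 0.14 and Lyz2 by 1.39 ± 0.11), against 3.55% of all genes, and 0 lower, against 1.93%. At an unadjusted p under 0.05, 13 were higher and 3 lower by edgeR, and DESeq2 gave 5 and 0. The median was 0.11, and it was -0.05 without CM replicate 2 and 0.29 without CM replicate 3, with 5 higher and 0 lower in both cases. Lineage markers were near their CM level, with Csf1r at 0.12 ± 0.12 and Spi1 at 0.38 ± 0.19. By the adjusted p alone 10 markers were higher and 1 lower (11.8% and 10.8% of all genes).

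**Figure D3:**
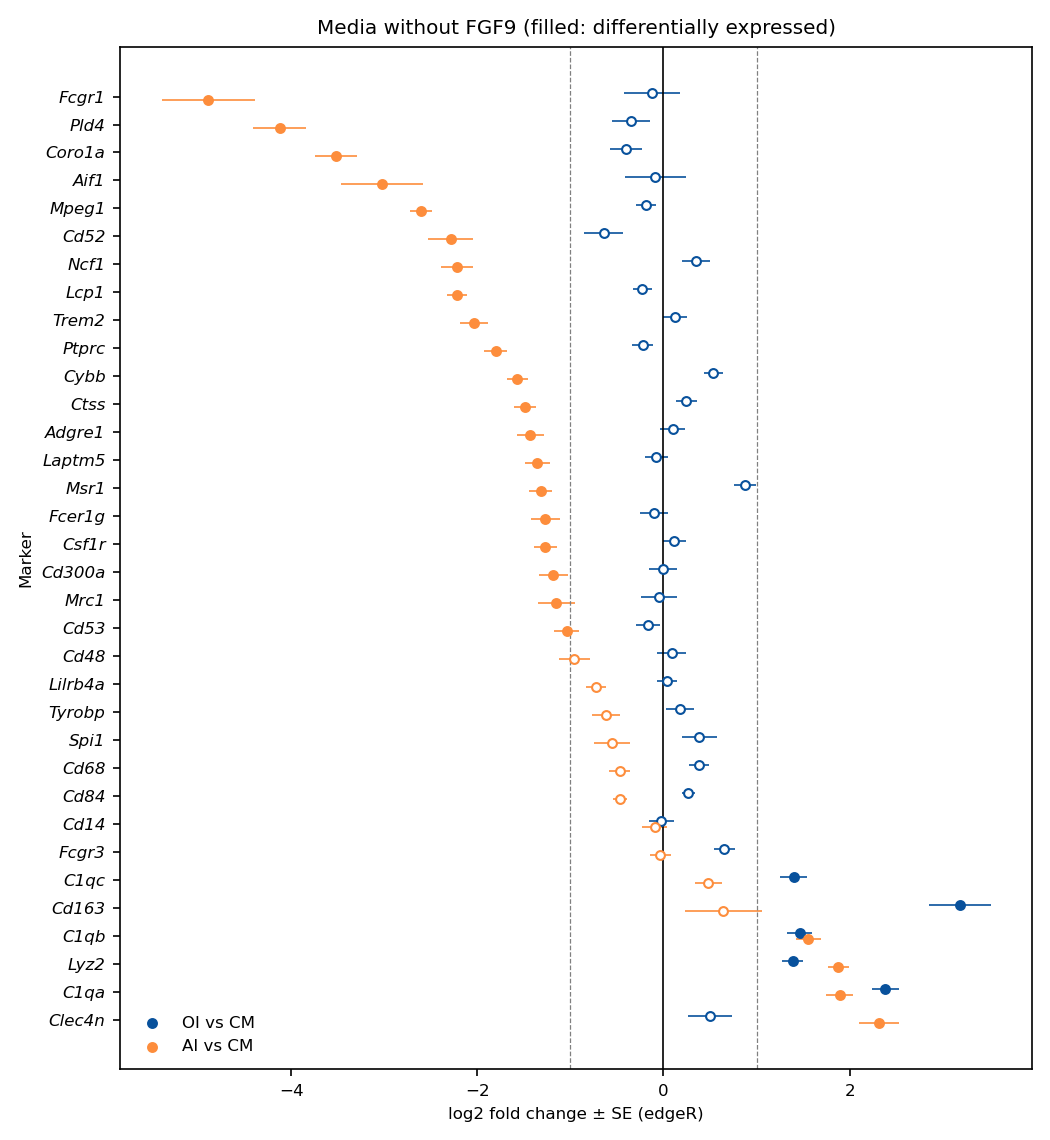
log2 fold change (x axis, edgeR, bars ± 1 SE) of each of the 34 markers (y axis, ordered by AI against CM) in OI against CM (blue) and AI against CM (orange), without FGF9; filled points were differentially expressed. AI points spread from -4.89 (Fcgr1) to 2.32 (Clec4n), with 20 filled on the left and 4 on the right; OI points lay between -0.64 (Cd52) and 0.88 (Msr1) apart from the 5 filled ones, Cd163, the C1q chains and Lyz2.

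With FGF9 present, 6 markers were higher in OI_F9 and 29 lower in AI_F9 than in CM_F9. In OI_F9 against CM_F9, those higher were C1qa, Cd163, C1qc, C1qb, Lyz2 and Fcgr3, with 0 lower, where 2.31% and 1.96% of all genes were. At an unadjusted p under 0.05 edgeR gave 19 and 1, and DESeq2 gave 6 and 0 by the thresholds. In AI_F9 against CM_F9, 29 were lower and 0 higher, where 19.5% and 13.3% were, with a median of -2.03 against -0.01; 1 was higher at an unadjusted p under 0.05, and DESeq2 too gave 0. Of these, Fcgr1 had 271 reads over the CM_F9 samples and 1 in AI_F9, a ratio of 287 (counting interval 51.0 to 11367). Lyz2, at 0.41 ± 0.11, was higher by the adjusted p alone (0.00283), and C1qa, C1qb, Clec4n and Cd163 changed by between -0.20 and 0.16. By the adjusted p alone 15 markers were higher and 0 lower in OI_F9 (10.5% and 10.4% of all genes), and 1 higher and 29 lower in AI_F9 (32.7% and 35.7%).

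The effect of FGF9 itself differed between media. In AI minus CM the interaction was past both thresholds for 12 markers, each more negative in AI, and for 0 more positive, against 8.45% and 5.66% of all genes, with a median of -0.93. The largest were Clec4n (-2.17 ± 0.33), C1qa (-2.07 ± 0.23), Mrc1 (-2.03 ± 0.31) and C1qb (-1.76 ± 0.21). Without CM replicate 2 the count was 9 (Cd14, Cd84 and Tyrobp were lost) and without CM replicate 3 it was 16, and under library size scaling it was 19, with the median of all genes at -0.27. In AI minus OI it was past both thresholds for 19 markers, against 8.04% lower and 6% higher of all genes, with a median of -1.19 and the largest values for C1qa (-2.58 ± 0.20), C1qb (-2.17 ± 0.19), Mrc1 (-2.14 ± 0.31) and C1qc (-2.09 ± 0.21). Both comparisons use the AI and AI_F9 samples, and in neither was a marker more positive in AI at an unadjusted p under 0.05 or by DESeq2. In OI minus CM 0 markers passed in either direction by edgeR, 6 were positive and 2 negative at an unadjusted p under 0.05, and DESeq2 called 1 as negative. The count was 0 and 0 without CM replicate 2, and 1 was negative without CM replicate 3. All genes passed in 0.499% as positive and 1.13% as negative. By the adjusted p alone 1 marker was positive and 0 negative in OI minus CM (2.12% and 3.37% of all genes), 26 were negative in AI minus CM (20.6%, and 19.4% positive), and 27 were negative in AI minus OI (20.3%, and 19.7% positive).

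**Figure D4:**
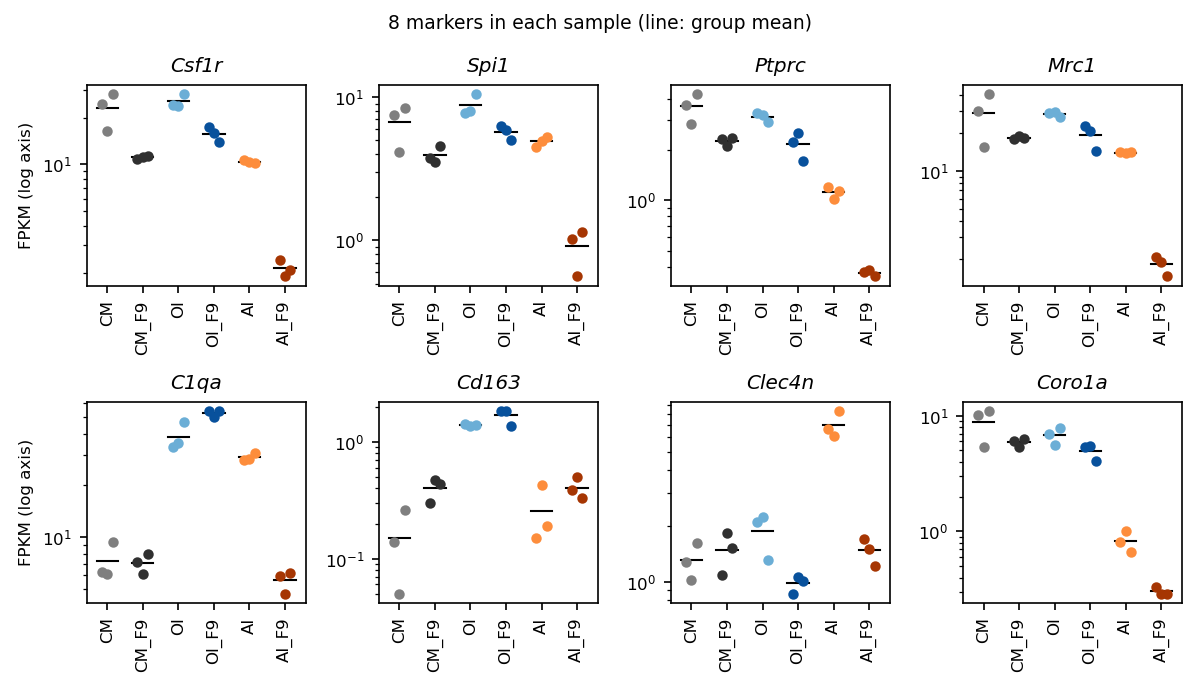
FPKM on a log axis of 8 markers in each of the 18 samples (points; lines are group means), with groups in the order CM, CM_F9, OI, OI_F9, AI and AI_F9. Csf1r, Spi1, Ptprc and Mrc1 are lowest in AI_F9; C1qa is high in OI, OI_F9 and AI, Cd163 in OI and OI_F9, Clec4n in AI, and Coro1a is low in both AI groups.

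Across the 18 samples most markers moved together and a few did not. The correlation of a marker's log2 CPM with the mean of the other markers was at least 0.842, the value of Cd14, for all but 6 and was highest for Fcer1g (0.988), Adgre1 (0.986) and Ctss (0.986). It was lowest for Clec4n (-0.25), Lyz2 (0.15), Cd163 (0.25), C1qa (0.49), C1qb (0.50) and C1qc (0.799). These values describe samples that share the 6 groups and carry no p. AI_F9 had the lowest of the 6 group means for 31 markers, the exceptions being Lyz2, Cd163 and Clec4n, and the highest mean was in OI for 15, in CM for 12, in AI for 4 and in OI_F9 for 3.

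**Figure D5:**
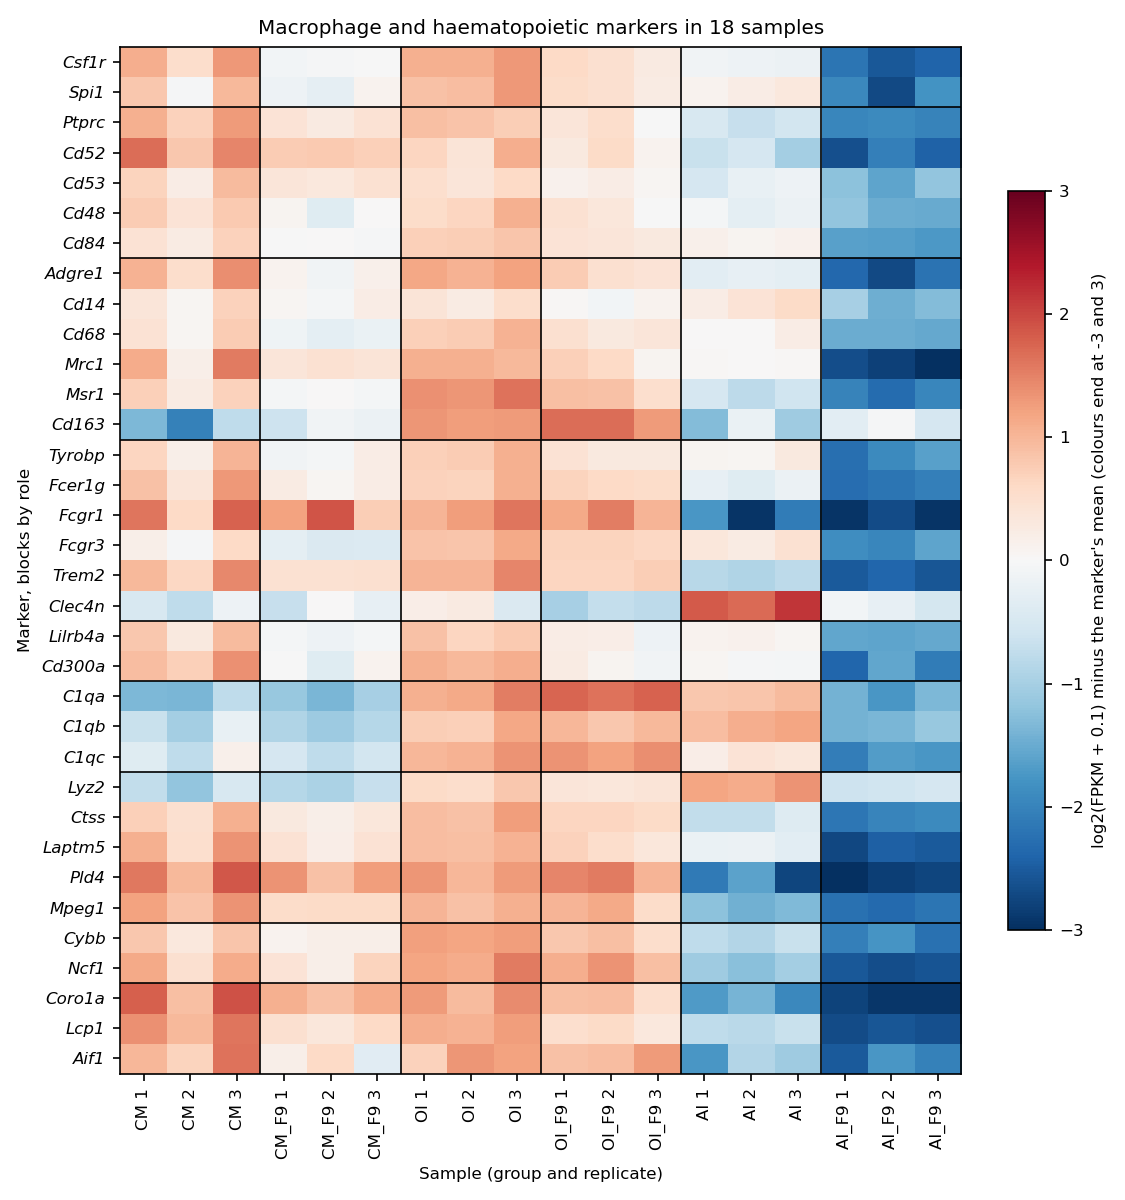
log2(FPKM + 0.1) minus each marker's mean over the 18 samples (colour, ends at -3 and 3), with samples in columns by group and replicate and markers in rows, in blocks by role. The 3 AI_F9 columns are blue for nearly every row, CM replicate 2 is paler than CM replicates 1 and 3, and C1qa, C1qb, C1qc, Lyz2, Cd163 and Clec4n break the pattern of the other rows.

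Among 12767 genes outside the list with a mean of at least 1 FPKM, those whose log2 CPM were most like the mean of the markers included Tlr13 (r = 0.994), Ehd4 (0.993), B3gnt3 (0.991), Alox5ap (0.990), Plekho1 (0.989), Kcnk6 (0.986), Arhgap30 (0.986), Arhgap45 (0.986) and Cd93 (0.985). Tlr13, a Toll-like receptor for bacterial ribosomal RNA, changed with FGF9 by -1.63 in AI, -0.76 in CM and -0.38 in OI. Alox5ap, which 5-lipoxygenase needs to make leukotrienes, changed by -2.13, -0.93 and -0.62 in the same order.

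A promoter sequence (250 bases before to 50 after the start, RefSeq, GRCm38.p6) was found for 24 of the 34 markers, 28 promoters in all. They were searched on both strands for GAGGAAGT, a form of the site that PU.1 binds, since the gene of this factor was itself among the markers that fell, and for its core GAGGAA, which each GAGGAAGT contains. GAGGAAGT was present in 4 of the 28 promoters (14.3%) and in 3.2% of all 32851 promoters of that length, and GAGGAA in 60.7% and 28.3%. The AP-1 site TGAGTCA was present in 7.14% and 5.2%, and the TATA box TATAAA in 10.7% and 13.6%. A match describes letters in the window and is no evidence of binding. The 4 promoters with GAGGAAGT are shown from 5′ to 3′ on the strand of the gene, with the match in capitals (ACTTCCTC where it lies on the other strand). They belong to Ctss (chr3:95526536-95526835, plus strand), C1qc (chr4:136892865-136893164, minus strand), Cd53 (chr3:106790100-106790399, minus strand) and Pld4 (chr12:112760405-112760704, plus strand).
Ctss: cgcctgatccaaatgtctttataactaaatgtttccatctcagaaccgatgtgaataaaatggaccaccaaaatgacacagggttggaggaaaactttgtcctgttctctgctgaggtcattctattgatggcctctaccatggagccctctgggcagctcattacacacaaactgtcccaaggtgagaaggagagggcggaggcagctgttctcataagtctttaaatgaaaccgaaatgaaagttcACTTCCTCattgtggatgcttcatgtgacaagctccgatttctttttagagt
C1qc: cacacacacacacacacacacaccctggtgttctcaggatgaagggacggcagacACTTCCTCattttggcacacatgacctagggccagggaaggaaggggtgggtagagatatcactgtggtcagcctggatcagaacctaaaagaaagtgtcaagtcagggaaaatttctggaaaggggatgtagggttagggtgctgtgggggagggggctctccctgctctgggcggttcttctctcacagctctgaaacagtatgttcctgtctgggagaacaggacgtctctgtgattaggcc
Cd53: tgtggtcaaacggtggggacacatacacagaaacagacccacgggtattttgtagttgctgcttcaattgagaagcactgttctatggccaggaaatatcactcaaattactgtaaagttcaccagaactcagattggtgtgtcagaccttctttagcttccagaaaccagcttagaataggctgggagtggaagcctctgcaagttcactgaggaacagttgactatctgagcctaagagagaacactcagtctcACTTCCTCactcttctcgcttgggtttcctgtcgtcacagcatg
Pld4: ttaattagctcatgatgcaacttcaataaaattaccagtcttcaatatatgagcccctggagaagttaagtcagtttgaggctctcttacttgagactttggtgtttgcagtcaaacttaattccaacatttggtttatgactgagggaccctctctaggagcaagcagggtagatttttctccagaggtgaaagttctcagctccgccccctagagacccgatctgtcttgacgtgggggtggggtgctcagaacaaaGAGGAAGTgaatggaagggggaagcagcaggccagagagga
The match starts at base -2 from the start site in Ctss, -195 in C1qc, 6 in Cd53 and 9 in Pld4. With FGF9 in AI these 4 genes changed by -1.21, -1.96, -0.85 and -1.27, within the range of the other markers.

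Genes of the same lineage outside the list were read from lists made by name, also with earlier results of these data known. Calls are by both thresholds, and a direction that is not mentioned had none. The shares of all genes that passed, to read these counts against, were 5.16% lower and 5.5% higher with FGF9 in CM, 6.07% and 5.48% in OI, and 9.32% and 6.66% in AI. Against CM they were 1.93% lower and 3.55% higher in OI, and 13.5% and 8.68% in AI. Of 48 other macrophage genes, 47 were tested. With FGF9 34 were lower and 1 higher in AI (median -1.43), while 3 were lower in CM (median -0.68) and 2 in OI (median -0.44), counts near the shares of all genes. In OI against CM 2 were lower and 5 higher, and in AI against CM 31 and 3. The largest changes with FGF9 in AI were those of Itgax, the integrin CD11c (-2.97, from 0.467 to 0.05 FPKM), Clec4a2 (-2.37), Cd37 (-2.31) and Slamf9, which was the 1 that rose (2.56) and was below 0.1 FPKM in both groups. Chosen after their values were seen, Ms4a6c and Ms4a6d rose in AI against CM (2.78 and 2.59) and fell with FGF9 in AI (-1.91 and -2.24).

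Of 19 growth factors, chemokines and receptors that act on macrophages, 17 were tested. With FGF9 2 were higher and 2 lower in CM, as in OI, while 3 were higher and 5 lower in AI. Against CM, OI had 2 higher and 2 lower and AI had 2 and 7. Csf1, the ligand of Csf1r, stood at 166 ± 4.45 FPKM in CM against 234 ± 1.72 with FGF9, at 247 ± 11.1 in OI against 250.3 ± 2.91, and at 109 ± 0.587 in AI against 52.2 ± 2.67, with changes of 0.43, -0.03 and -0.85 that did not reach the fold threshold. Gas6, a bridge between dying cells and phagocyte receptors, fell with FGF9 in all 3 media (-1.98, -2.78 and -1.75). Cx3cl1, a membrane-bound chemokine, rose in all 3 (1.24, 2.17 and 1.85), and the monocyte chemoattractant Ccl2 rose in CM and AI (1.19 and 1.65). Tnfrsf11a, the receptor RANK, fell in AI (-1.95). Named after their values were seen, the monocyte receptors Ccr2 and Cx3cr1 had means of 2.88 and 2.35 FPKM in CM, and of 0 and 0.01 in AI.

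Of 15 transcription factors of the lineage, 14 were tested: 1 rose and 1 fell with FGF9 in OI and 7 fell in AI, with the largest changes in Tfec (-1.79), Irf5 (-1.62), Maf (-1.47) and Runx1 (-1.36), and against CM, AI had 3 higher and 7 lower and OI had 1 higher. Of 20 activation genes 11 were tested: FGF9 raised 2 and lowered 1 in CM, lowered 2 in OI, and raised 2 and lowered 3 in AI, among them Tnf (-2.43), Ccl3 (-1.9), Ccl5 (2.10) and Ptgs2 (1.62), and against CM, AI had 2 higher and 5 lower and OI had 2 higher. Of 11 osteoclast genes 9 were tested: 2 fell in OI and 5 in AI, with Dcstamp (-2.11), Atp6v0d2 (-1.63), Acp5 (-1.30) and Mmp9 (-1.28) the largest, and against CM, AI had 3 higher and 2 lower and OI had 2 higher.

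Lists of other cells were read beside the markers, and their part in the result was not tested. Of 13 granulocyte genes 10 were tested: with FGF9 1 fell in CM, 2 rose in OI and 1 rose in AI (Camp, 1.30), and against CM, AI had 1 higher and 6 lower and OI had 1 higher, with summed levels of 4.66 to 30.7 FPKM. Of 13 lymphoid genes 2 were tested, and Lck rose with FGF9 in AI (3.63, at under 0.1 FPKM) and fell in AI against CM. Of 11 erythroid and megakaryocyte genes 3 were tested, and the chemokine gene Pf4, which macrophages can also make, fell in all 3 media (-1.04, -1.11 and -2.28), while against CM 1 gene rose in AI. Of 9 mast cell genes 3 were tested: Cpa3 rose in CM (2.85) and OI (1.73), and 1 gene fell in AI against CM. The summed level of the mast cell list was 0.6 to 1.07 FPKM in CM and 1.18 to 4.97 in CM_F9. Of 12 antigen-presenting genes 10 were tested: FGF9 raised 2 and lowered 1 in CM, lowered 2 in OI, and lowered 1 in AI (H2-DMb1, -1.55), and against CM 1 rose and 6 fell in AI. The summed level of the antigen-presenting list was 10.7 to 14.8 FPKM in CM and 8.68 to 30.4 in CM_F9, so these ranges overlapped.

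Of 16 endothelial genes 15 were tested: FGF9 lowered 11 and raised 1 in AI and lowered 4 in each of CM and OI, and their summed level was 29.0 to 33.2 FPKM in AI and 12.3 to 14.3 in AI_F9. The largest changes in AI were those of Sox17 (-4.84), Tie1 (-3.12), Kdr (-2.98) and Ptprb (-2.76), and against CM, OI had 6 higher and 2 lower and AI had 7 and 5. All 12 smooth muscle genes were tested: FGF9 lowered 10 in AI, 9 in CM and 11 in OI, with Acta2 at -7.67, Myl9 at -6.76, Lmod1 at -6.54 and Cnn1 at -6.48 in AI, and against CM 1 rose in OI and 9 fell in AI. Of the 12 genes of the stromal panel, FGF9 raised 4 and lowered 1 in CM, raised 2 and lowered 1 in OI, and raised 2 and lowered 4 in AI, and their summed level went from 723 to 747 FPKM in AI to 375 to 388 in AI_F9. The chemokine Cxcl12 (-2.82), the endoglin gene Eng (-1.80), Pdgfrb (-1.44) and Nt5e (1.44) changed most there, and against CM, AI had 1 higher and 6 lower and OI had 2 higher.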

How the data were processed

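Per the study's methods and the submitters' processing notes, the authors trimmed poly(A) RNA-seq reads with cutadapt 1.9.1, mapped them with HISAT2 2.2.1 and counted them with HTSeq 0.6.1 on GRCm39. The deposited table pairs raw read counts per gene with the authors' FPKM, which equal counts scaled by gene length and library total within 1% for 100% of values of at least 5. Columns of the 18 samples were matched to the labels by name, and 0 stayed unmatched.

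The markers, roles and lists were chosen with earlier results of these data known. Counts were tested with edgeR 4.0.16 (quasi-likelihood F test, TMM scaling, filterByExpr, 1 fit over 18 samples, Benjamini-Hochberg over 17631 genes, R 4.3.3), checked on simulated data. The study's methods name DESeq2, run here (1.42.0) as an alternative. Others were limma 3.58.1 on log2(FPKM + 0.5) or + 1, other filters, library size scaling, a replicate block and leaving out each sample. The deviations of samples with the same replicate number correlated by over 0.1 at every number between OI and OI_F9 (r = 0.101, 0.127 and 0.149). Between AI and AI_F9 r was 0.0276, 0.0137 and 0.110, and between CM_F9 and OI_F9 0.0251, 0.0959 and 0.0771. It was 0.0228 to 0.0346 between CM and CM_F9. The labels do not say that a number marks a shared culture. The text names every marker and gives all samples for the defining, the 10 most abundant, the oppositely called and the interaction-called ones; of each other list it names up to 4 called genes. Intervals on read counts (exact, 95%) cover counting error only. Protein sequences were not used here, and 1 gene among those most like the markers is not reported here.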

Additional observations from a re-analysis of the deposited data

Results flagged for a closer look

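The effect of FGF9 in AI differed from its effect in CM, by edgeR's interaction test with both thresholds, for 12 markers: Clec4n (-2.17 on the log2 scale, AI minus CM), C1qa (-2.07), Mrc1 (-2.03), C1qb (-1.76), C1qc (-1.56), Lyz2 (-1.47), Laptm5 (-1.46), Spi1 (-1.41), Fcgr3 (-1.24), Tyrobp (-1.16), Cd14 (-1.09) and Cd84 (-1.07). It differed from its effect in OI for 19: C1qa (-2.58, AI minus OI), C1qb (-2.17), Mrc1 (-2.14), C1qc (-2.09), Laptm5 (-1.71), Fcgr3 (-1.61), Spi1 (-1.55), Fcer1g (-1.47), Adgre1 (-1.36), Csf1r (-1.33), Tyrobp (-1.30), Lyz2 (-1.25), Ncf1 (-1.22), Cd52 (-1.21), Cd84 (-1.16), Clec4n (-1.06), Cd14 (-1.04), Lcp1 (-1.01) and Trem2 (-1.0). Every one of these values was negative. The 2 comparisons share the AI and AI_F9 samples.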

How the results depend on the processing

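Of 130 calls of a marker in a comparison, 98 were kept in every one of up to 26 alternative settings and 0 reversed. Those lost most often were Pld4 with FGF9 in AI (10 settings) and Trem2 and Cd52 in AI minus OI (9 each). Of the 130, limma on FPKM lost 16 with 0.5 added and 26 with 1 added, library size scaling 3 and DESeq2 1. The causes were not tested.

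In CM, limma with 0.5 or 1 added gave 0 higher and 0 lower with FGF9, and in OI 0 lower. With FGF9 in AI, limma gave 26 lower with 0.5 added and 21 with 1 added, against 29 by edgeR. In AI against CM it gave 17 and 15 lower, against 20, and 4 higher with either. With FGF9 in OI, DESeq2 gave 2 lower and library size scaling 0. By the adjusted p alone the counts were 28 lower in CM, 1 higher and 23 lower in OI, 1 higher in AI, 10 higher and 1 lower in OI against CM, 15 higher in OI_F9 against CM_F9, 1 higher in AI_F9 against CM_F9, 1 higher in OI minus CM and 26 lower in AI minus CM. In OI minus CM, DESeq2 gave 1 lower and no filter 2, and in AI minus CM library size scaling gave 19.

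Leaving out 1 sample at a time gave, with FGF9, 0 to 1 higher and 1 to 8 lower in CM, 1 to 2 lower in OI and 0 to 1 higher and 26 to 29 lower in AI, 0 to 1 lower in OI minus CM, and 0 to 1 higher and 16 to 20 lower in AI minus OI. The 8 came without CM replicate 2 and the 1 without CM replicate 3. In AI minus CM the range was 9 to 16 lower.

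The log2 ratio of summed FPKM in AI against CM was 0.67 with all markers, -0.62 without Lyz2 and 0.079 as a percent of counts. In OI against CM it went from 0.73 to 0.33 without Lyz2, in OI_F9 against CM_F9 from 0.85 to 0.61 without Lyz2 and 0.65 as a percent of counts, and in AI_F9 against CM_F9 from -0.72 to -1.90 and -1.20. With the replicate block, 29 markers were lower with FGF9 in AI, 4 in CM and 1 in OI, as without it, AI minus OI gave 20 in place of 19, and none of the 130 calls was lost. Depth limits Fcgr1, Aif1 and Pld4 in AI_F9, with 1, 3 and 19 reads over 3 samples.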
